A study of Mus musculus with 24 samples.

Results

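The BK channel genes Kcnma1, which encodes the pore, and Kcnmb1, Kcnmb2, Kcnmb3 and Kcnmb4, which encode the beta subunits, were followed probe by probe in offspring hippocampus on Agilent mouse arrays. All probes whose identifier matched one of these 5 symbols were taken, which gave 7 of the 39429 probes of the array, and 4 of the 19751 gene symbols that had a matched probe. They were 2 probes for Kcnma1 (A_51_P187352 and A_55_P2071656), 1 for Kcnmb1 (A_66_P131851), 2 for Kcnmb2 (A_55_P2007761 and A_55_P2112524) and 2 for Kcnmb4 (A_55_P2090330 and A_55_P2161353). No probe was matched to Kcnmb3 here. The 24 arrays fell into 4 groups of 6. CD F1 and MD F1 were offspring of fathers kept for 6 weeks before mating on the control diet or on a methyl donor-rich diet (3MS ZM) with added L-methionine, choline, betaine, folic acid, vitamin B12 and zinc. The groups called CD F2 and MD F2 had grandfathers on these diets, and according to the methods they came from F1 sons mated with CD F1 females. Offspring of every group ate the control diet themselves, and the labels give the strain as congenic C57BL/6J x 129S6/SvEv hybrids and the age as 4 weeks, whereas the methods call them adult animals. Each array held a pool of 4 mice, so that the spread between arrays is a spread between pools. The question was whether the paternal or grandpaternal diet altered the RNA of the BK channel subunits.

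BK channels are potassium channels of large conductance that open when the membrane is depolarised and calcium rises inside the cell. The alpha subunit from Kcnma1 forms the pore and senses voltage and calcium, and a beta subunit beside it changes calcium sensitivity, kinetics and pharmacology. The beta2 subunit carries an N-terminal segment that inactivates the current, beta4 is the main beta subunit of neurons and slows gating, and beta1 is best known from smooth muscle. In hippocampal pyramidal neurons BK current shortens the action potential and shapes firing and transmitter release.

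The stretch just upstream of the Kcnmb2 start is shown because the study measured DNA methylation there. No methylation values were analysed here. In the RefSeq promoter table (GRCm38.p6) these 250 bases lie at chr3:31902453-31902702, on the plus strand, directly before the first base of the gene. Capitals mark the CpG dinucleotides that the study's bisulfite assays read, found by converting the reference sequence in the same way as the assay sequences and matching them letter by letter.

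Kcnmb2 upstream: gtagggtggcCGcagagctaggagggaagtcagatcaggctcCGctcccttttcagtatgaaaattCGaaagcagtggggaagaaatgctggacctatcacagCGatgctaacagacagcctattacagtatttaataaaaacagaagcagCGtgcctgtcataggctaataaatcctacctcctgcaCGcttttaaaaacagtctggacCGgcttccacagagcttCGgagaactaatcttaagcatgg

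All 8 CpGs of this stretch were assay positions, at positions -240 to -23 from the start, and a further assay CpG lay 9 bases into the gene. The other 5 of the 14 assay CpGs were outside the window. Counting CG on 1 strand (the letters read the same on both), 59.7% of 32851 promoter stretches of the same length held as many CpGs as Kcnmb2 or fewer, and their median was 6. The promoters of Kcnma1 and Kcnmb4 were rich in CpG, with 31 and 43 in the same length, a number that 95.4% and 99.5% of the stretches did not exceed. Kcnmb1 had 1 CpG there and Kcnmb3 had 6.

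Median intensity per array ran from 167 to 318 in F1 and from 148 to 262 in F2, and MD F1 replicate 6 was the lowest of F1 (167). In F2, replicate 6 of CD F2 and replicate 3 of MD F2 stood apart, with 28000 and 27383 spots well above background against 32809 to 34661 on the other 10. No array pair held identical values. All 12 F1 arrays had both Xist and the Y-linked Ddx3y well above background, whereas in F2 9 arrays had Ddx3y without Xist and 3 had Xist without Ddx3y. A sex-linked measure, the mean log2 signal of 4 Y-linked genes (Ddx3y, Eif2s3y, Kdm5d, Uty) less the Xist signal, lay between -2.26 and -1.86 in CD F1 and between -2.14 and 0.16 in MD F1, with MD F1 replicate 6 at the upper end. All 7 markers of hippocampal principal cells and all 5 of interneurons were well above background on every array. Every slide held both diets. No slide and no scan day was common to F1 and F2, and generation cannot be told apart from either. The paper also states that its F1 mice were isogenic and its F2 mice were not. It proposes that this heterogeneity may have hidden phenotypic differences in F2. Signals are given as log2 of the background-subtracted intensity after quantile normalization within a generation. Signals of different probes depend on the probe as well as on the RNA, so that the relative amounts of pore and beta subunits cannot be read from them.

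In F1, 1 of the 7 BK probes passed an FDR under 0.1 in limma, the dim Kcnmb2 probe A_55_P2007761, which was lower in MD F1. Over all probes 0.033% were called. All 7 BK probes had a log2 fold change below 0, where 48.5% of all probes did, and their median was -0.12 against 0.01 over all probes. At an unadjusted p under 0.05 there were 2 of 7, where 14.4% of all probes reached it. In F2 limma called 0 of 7, against 0% of all probes, and Kcnmb1 was the only 1 of them with an unadjusted p under 0.05, against 5.6%. Of the 7, 2 had a log2 fold change below 0 in F2, where 45.7% of all probes did. The difference of the diet effect between the generations called 0 of 7 BK probes in limma at that FDR, with 1 at an unadjusted p under 0.05, against 0.0127% and 8.29% of all probes, and 6 of 7 were below 0, against 52.4%.

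**Figure D1:**
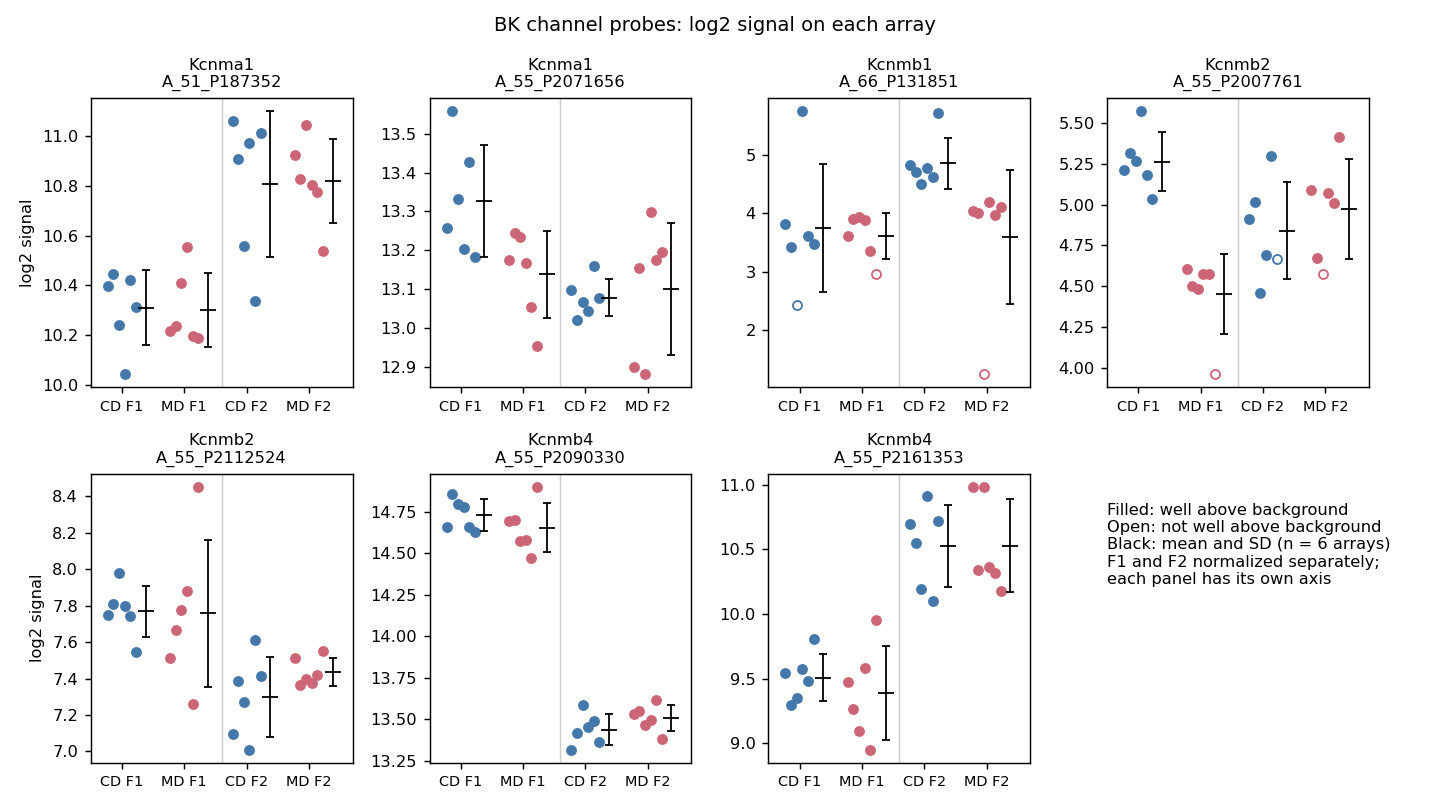
Log2 signal (vertical axis, each panel with its own scale) of the 7 BK channel probes on every array, by group; filled points are well above background, open points are not, and black bars are mean and SD of 6 arrays. All MD F1 arrays lie below all CD F1 arrays for Kcnmb2 A_55_P2007761, and all MD F2 arrays below all CD F2 arrays for Kcnmb1.

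The pore gene Kcnma1 was measured well above background by both of its probes on all 24 arrays. Probe A_55_P2071656 had a lowest, median and highest signal of 13.18, 13.29 and 13.56 in CD F1, and of 12.95, 13.17 and 13.25 in MD F1. The groups overlapped. The mean of 13.33 ± 0.144 in CD F1 against 13.14 ± 0.113 in MD F1 (SD over arrays, n = 6 each) gave a log2 fold change of -0.19 (standard error 0.0799, 95% interval -0.36 to -0.01). The FDR was 0.321 (limma), so that it did not pass the threshold, and the difference was -0.40, -0.11 and -0.06 within the 3 slides. It was called without scaling between arrays, at a log2 fold change of -0.40 and an FDR of 0.0891 (limma). That setting put the median of all probes in F1 at -0.28, against 0.01 with scaling, and called 7952 of all 39429 probes. Probe A_51_P187352 ran from 10.04 to 10.45 in CD F1 and from 10.19 to 10.55 in MD F1. Its mean was 10.31 ± 0.151 against 10.30 ± 0.147 (SD over arrays, n = 6 each), a log2 fold change of -0.01 with a 95% interval from -0.20 to 0.18.

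In F2 the diet groups overlapped at both Kcnma1 probes. The F2 means of A_55_P2071656 were 13.08 ± 0.0480 in CD F2 against 13.10 ± 0.170 in MD F2 (SD over arrays, n = 6 each), with a log2 fold change of 0.02 (95% interval -0.15 to 0.20). For A_51_P187352 they were 10.81 ± 0.292 against 10.82 ± 0.169 (SD over arrays, n = 6 each), with a log2 fold change of 0.01 (95% interval -0.29 to 0.31). Both intervals leave out a change of 1 log2 unit in either direction. The probes did not follow each other from array to array. After centring on the group means, Spearman's rho between them was -0.0583 over 24 arrays, given as a description.

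Kcnmb2 gave different values at its probes. A_55_P2007761 was dim. In CD F1 its log2 signal was 5.21, 5.32, 5.27, 5.57, 5.18 and 5.03 for replicates 1 to 6, all well above background. In MD F1 it was 4.61, 4.50, 4.48, 4.57, 4.58 and 3.96, of which replicate 6 was not well above background. The groups did not overlap, as for 1.79% of all probes in F1, and for 1.07% with MD F1 as the lower group. Before scaling, its intensity was 37.6 to 57.0 (median 43.5) in CD F1 and 9.26 to 24.4 (median 21.4) in MD F1.

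With a mean of 5.26 ± 0.180 in CD F1 against 4.45 ± 0.244 in MD F1 (SD over arrays, n = 6 each), the log2 fold change of A_55_P2007761 was -0.81 (standard error 0.120, 95% interval -1.07 to -0.55). The signal in MD F1 was thus 56.9% of that in CD F1 (95% interval 47.5 to 68.3%). The unadjusted p was 2.00e-05 and the FDR 0.0815 (limma), and 8 probes had a smaller p. The study itself singled out this probe on these arrays, so that the call is no independent evidence for its direction. The study also reported lower Kcnmb2 RNA in MD F1 by quantitative PCR on other samples, which were not analysed here. The drop it reported there was smaller than the drop at this array probe. In F2 the study's quantitative PCR gave no measurable Kcnmb2 difference. Within the 3 slides the differences were -1.03, -0.61 and -0.80.

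The call depended on single arrays. With 1 array left out at a time, log2 fold changes lay between -0.86 and -0.72, and the FDR (limma) ran from 0.0533 to 0.231. The call remained without MD F1 replicate 1 or without MD F1 replicate 6 and ended without any other array. It also ended with scaling to the 75th percentile (-0.97, FDR 0.172, limma), with the slide as a block (FDR 0.149), with a trended and robust variance prior (FDR 0.118) and with the choroid plexus level as a covariate (-0.80, FDR 0.158). Adding the sex-linked measure to the model left -0.64 (FDR 0.287, limma). With normexp background correction and an offset of 50, which is larger than the median unscaled intensity of the probe, it was -0.18 (FDR 0.185, limma). Median intensity per array also moved with the groups, from 251 to 318 in CD F1 and from 167 to 262 in MD F1; its part in the result was not tested. The markers of hippocampal principal cells moved with the F1 groups too. The log2 of their summed linear signals was 15.47 to 15.59 in CD F1 and 15.37 to 15.47 in MD F1, with every MD F1 array below every CD F1 array by a narrow margin. The brightest of them, Wfs1 and Bok (mean log2 signal 14.39 and 13.89 in F1), weigh most in this sum. Of the 7 markers, 5 were lower in MD F1, with a median log2 fold change of -0.14. Wfs1, a marker of CA1 pyramidal neurons, had -0.25 (unadjusted p 0.00484, FDR 0.214, limma), and 0 of the 7 were called. All 5 interneuron markers had a log2 fold change below 0 in F1, with a median of -0.10 and 0 at an unadjusted p under 0.05 in limma, and their summed levels overlapped. Markers of other cells and tissues differed in F1 as well. Of the 5 thalamus and the 5 striatum markers, 3 each were lower in MD F1, with medians of -0.21. All 5 smooth muscle markers were lower, with a median of -0.09, and 0 of the 5 choroid plexus markers, with a median of 0.46. How often the summed level of other gene sets does not overlap was not computed. The part of principal cells, interneurons, thalamus, striatum or smooth muscle in the Kcnmb2 result was not tested. In bulk tissue fewer cells of a type and less RNA per cell cannot be told apart.

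**Figure D2:**
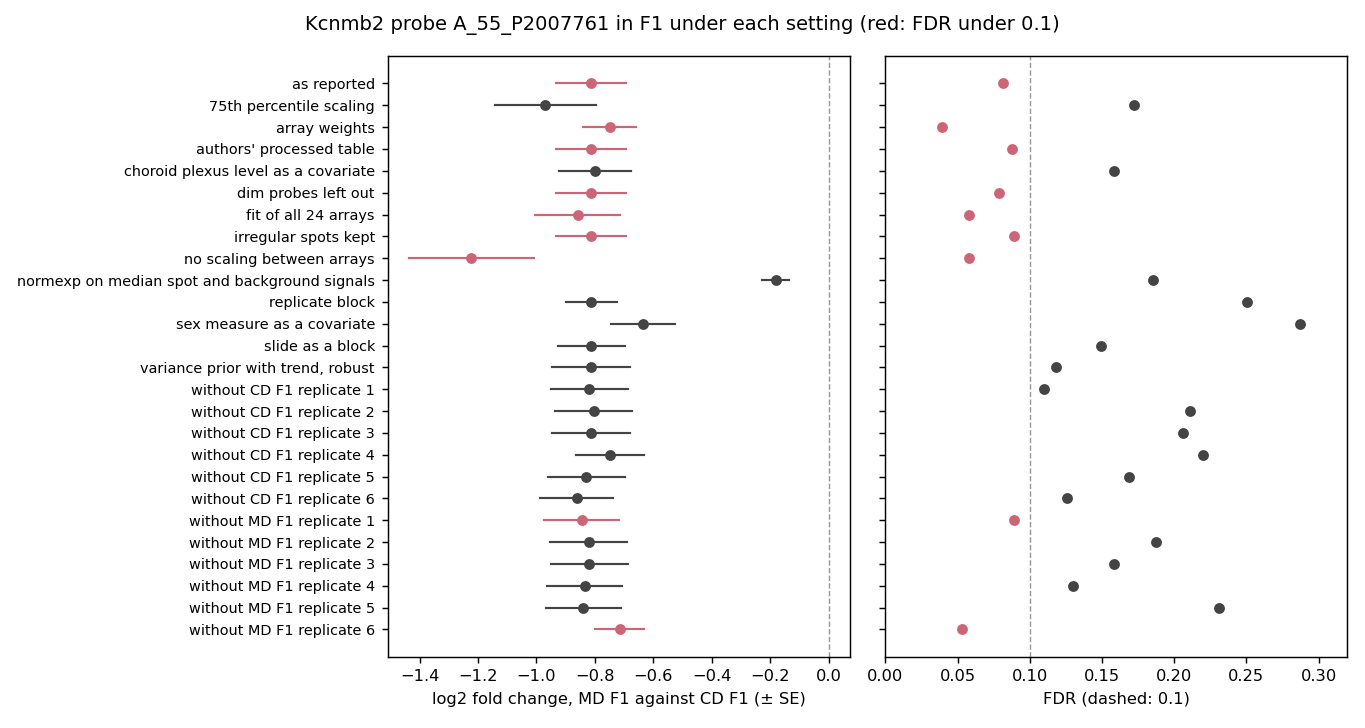
Log2 fold change with standard error (left) and FDR from limma (right) of Kcnmb2 A_55_P2007761 in MD F1 against CD F1 under each setting and with each array left out; red marks an FDR under 0.1. The log2 fold change is below 0 in every row, from -1.22 without scaling to -0.18 with normexp, while the FDR lies on both sides of 0.1.

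The other Kcnmb2 probe, A_55_P2112524, gave a brighter signal, above the background threshold on all 24 arrays. In CD F1 its log2 signal was 7.75, 7.81, 7.98, 7.80, 7.74 and 7.54 for replicates 1 to 6. In MD F1 it was 7.51, 7.67, 7.77, 7.88, 7.26 and 8.45. MD F1 replicate 6, the lowest array at the dim probe, was the highest here, and the groups overlapped. Their means were 7.77 ± 0.139 against 7.76 ± 0.403 (SD over arrays, n = 6 each), a log2 fold change of -0.01 (95% interval -0.37 to 0.35, FDR 0.981, limma). Without MD F1 replicate 6 it was -0.15 (FDR 0.558, limma), and over all single arrays left out it ran from -0.15 to 0.09. With the sex-linked measure in the model it was -0.31 (unadjusted p 0.0165, FDR 0.427, limma), against -0.64 for the dim probe in that fit, and without scaling -0.33 (FDR 0.149, limma), against -1.22. As first given, the interval of A_55_P2112524 does not reach the -0.81 of A_55_P2007761. On the same array, the dim minus the bright probe was lower in MD F1 than in CD F1 by 0.80 on average, although the arrays overlapped. MD F1 replicate 6, at -4.49, enters this average. The other MD F1 arrays had -3.31 to -2.68, and the CD F1 arrays -2.71 to -2.22. The group-centred signals of both probes had a Spearman's rho of 0.152 over 24 arrays (0.396 over the 21 without MD F1 replicate 6, CD F2 replicate 6 and MD F2 replicate 3). Which part of the transcript each probe reads was not analysed here.

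In F2 the diet groups overlapped at the dim Kcnmb2 probe. In CD F2 its log2 signal was 4.91, 5.02, 4.46, 4.69, 5.30 and 4.67 for replicates 1 to 6. In MD F2 it was 5.09, 4.68, 4.57, 5.07, 5.01 and 5.42. The groups lay over one another, and the last CD F2 array and the third MD F2 array were not well above background. The log2 fold change was 0.13 (95% interval -0.23 to 0.50, FDR 0.953, limma) and changed sign without scaling and with normexp (-0.01 each). A_55_P2112524 ran from 7.01 to 7.61 in CD F2 and, within a narrower range, from 7.36 to 7.55 in MD F2. It had a mean of 7.30 ± 0.221 in CD F2 against 7.44 ± 0.0761 in MD F2 (SD over arrays, n = 6 each), with a log2 fold change of 0.14 (95% interval -0.08 to 0.35). The 3 arrays with Xist and without Ddx3y had 4.46 and 5.30 (CD F2) and 5.42 (MD F2) at the dim probe, the first the lowest and the last the highest of the 12 F2 arrays.

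The F1 effect minus the F2 effect on A_55_P2007761, with all 24 arrays normalized together, was -0.99 on the log2 scale (standard error 0.207, 95% interval -1.42 to -0.56). The unadjusted p was 9.45e-05 and the FDR 0.196 (limma), so that the difference between the generations did not pass the threshold, which 0.0127% of all probes did. It passed with array weights (-0.95, FDR 0.0199, limma) and without both F2 arrays that stood apart (-1.01, FDR 0.0968, limma), settings that also called more of all probes. It also passed without CD F2 replicate 5 or without MD F2 replicate 2, and over all arrays left out singly the value ran from -1.07 to -0.89 with FDRs (limma) from 0.0891 to 0.405. For the other Kcnmb2 probe the difference was -0.15 (95% interval -0.56 to 0.26).

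**Figure D3:**
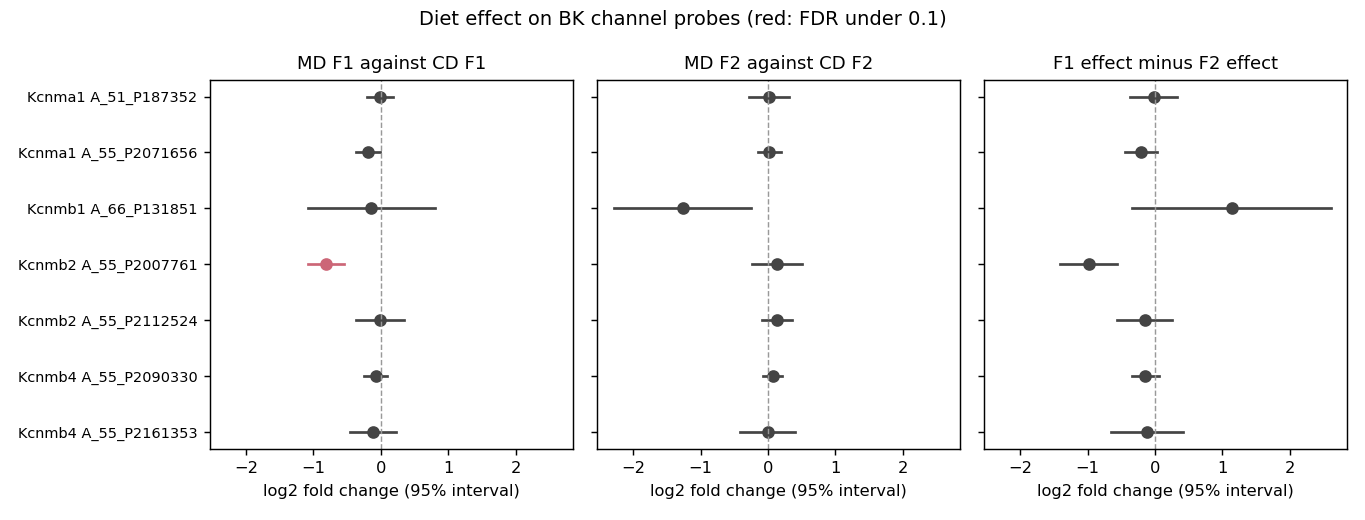
Log2 fold change with 95% interval from limma for the 7 BK channel probes in MD F1 against CD F1, in MD F2 against CD F2, and for the F1 effect minus the F2 effect; red marks an FDR under 0.1. Only Kcnmb2 A_55_P2007761 in F1 is red, at -0.81, and Kcnmb1 has the widest intervals in all 3 panels.

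Kcnmb4, the neuronal beta subunit, was measured well above background by both probes on all 24 arrays and its diet groups overlapped in both generations. Probe A_55_P2090330 was bright, with 14.73 ± 0.0944 in CD F1 against 14.65 ± 0.147 in MD F1 (SD over arrays, n = 6 each). The log2 fold change was -0.08 with a 95% interval from -0.24 to 0.09. In F2 its means were 13.44 ± 0.0955 in CD F2 against 13.51 ± 0.0803 in MD F2 (SD over arrays, n = 6 each), a log2 fold change of 0.07 (95% interval -0.08 to 0.21). A_55_P2161353 had 9.51 ± 0.181 in CD F1 against 9.39 ± 0.364 in MD F1 (SD over arrays, n = 6 each), with a log2 fold change of -0.12 (95% interval -0.46 to 0.22). It was -0.35 with the sex-linked measure in the model (unadjusted p 0.0295, FDR 0.462, limma) and -0.42 without scaling (unadjusted p 0.0360, FDR 0.124, limma), where A_55_P2090330 had -0.16 and -0.26. In F2 it ran from 10.10 to 10.91 in CD F2 and from 10.18 to 10.99 in MD F2, with a log2 fold change of -0.00 (95% interval -0.41 to 0.41). Between the generations the probes of Kcnmb4 went opposite ways, the first dimmer and the second brighter in F2. The generations were normalized separately, and generation, slide and scan day cannot be told apart in this.

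Kcnmb1, which encodes the smooth muscle beta subunit, lay at the lower end of the measured range. In CD F1 its log2 signal was 3.82, 3.42, 2.43, 5.75, 3.62 and 3.47 for replicates 1 to 6, and in MD F1 it was 3.61, 3.90, 3.93, 3.89, 3.36 and 2.96. CD F1 replicate 3 and MD F1 replicate 6 were not well above background, and CD F1 replicate 4 was more than 1 log2 unit above every other F1 array. The means were 3.75 ± 1.09 against 3.61 ± 0.387 (SD over arrays, n = 6 each), a log2 fold change of -0.14 with a 95% interval from -1.08 to 0.80, so that neither a change to 47.2% nor one to 174% of the control level was left out. Its sign turned with the sex-linked measure as a covariate (0.11) and without CD F1 replicate 4 (0.26).

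In F2 every MD F2 array was below every CD F2 array for Kcnmb1. In CD F2 the log2 signal was 4.82, 4.70, 4.50, 4.78, 4.63 and 5.72 for replicates 1 to 6. In MD F2 it was 4.03, 4.01, 1.25, 4.20, 3.97 and 4.10, of which replicate 3 was not well above background. Groups did not overlap for 0.365% of all probes in F2, and for 0.127% with MD F2 as the lower group. The means were 4.86 ± 0.437 against 3.59 ± 1.15 (SD over arrays, n = 6 each), a log2 fold change of -1.27 (standard error 0.468, 95% interval -2.29 to -0.24). At an unadjusted p of 0.0194 the FDR was 0.890 (limma), so that it was not called.

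The size of the Kcnmb1 difference rested on the 2 F2 arrays that stood apart, which were the highest of CD F2 and the lowest of MD F2. Without both of them the log2 fold change was -0.60, with an unadjusted p of 2.48e-05 and an FDR of 0.681 (limma). Without MD F2 replicate 3 alone it was -0.79. The differences within the 3 F2 slides were -0.66, -2.53 and -0.61, and within the codes lh and rh of the F2 labels, whose meaning is not given in the sources used here, they were -1.58 and -0.96. Among the alternatives the value ran from -1.46 to -0.18, the smaller end with normexp, and no FDR was below 0.348 (limma). The F1 effect minus the F2 effect was 1.14 (95% interval -0.34 to 2.61, FDR 0.703, limma).

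Of the smooth muscle markers in F2, 1 of the 5 (Acta2, Tagln, Myh11, Cnn1 and Des) was lower in MD F2, and 0 had an unadjusted p under 0.05 in limma. The log2 of their summed linear signals was 12.50 to 14.63 in CD F2 and 13.40 to 14.82 in MD F2. Choroid plexus markers moved with the F2 groups. All 5 (Ttr, Kl, Folr1, Kcnj13 and Otx2) were lower in MD F2, by log2 fold changes from -2.34 to -1.31, with 0 at an unadjusted p under 0.05 in limma. The log2 of their summed linear signals was 11.06 to 18.06 in CD F2 (median 17.75) and 11.39 to 17.69 in MD F2 (median 12.96). With the choroid plexus level in the model, Kcnmb1 had -1.46 in F2 (FDR 0.999, limma). The part of choroid plexus tissue in the Kcnmb1 difference was not tested.

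Set against the pore probe A_55_P2071656 on the same array, each beta subunit was compared between the groups once more. The Kcnmb2 dim probe minus Kcnma1 was lower in MD F1 than in CD F1 by 0.62 (log2), with no overlap between the groups, and differed by 0.11 in F2, with overlap. The Kcnmb2 bright probe minus Kcnma1 differed by 0.18 in F1 and 0.11 in F2, and both Kcnmb4 probes minus Kcnma1 by 0.11 or less in F1 and by 0.05 or less in F2, all with overlap. Kcnmb1 minus Kcnma1 differed by 0.05 in F1 with overlap and by -1.29 in F2 without overlap. These are differences of a difference, and they reuse the signals already given above, so that they add no separate evidence. The Kcnma1 probe itself had a log2 fold change of -0.19 in F1, which enters each F1 value. How many of all probes would not overlap in such a difference was not computed. The distance itself between probes has no meaning in amounts of RNA.

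**Figure D4:**
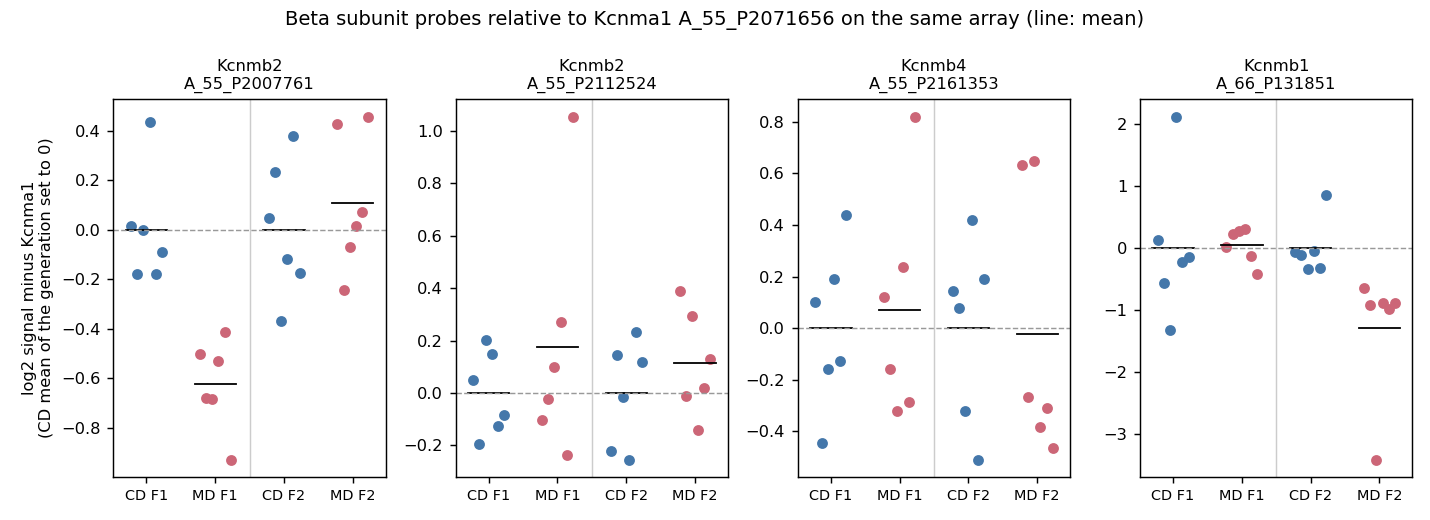
Log2 signal of 4 beta subunit probes minus that of Kcnma1 A_55_P2071656 on the same array, with the mean of the control group of each generation set to 0; points are arrays, lines are means, and each panel has its own axis. MD F1 lies below CD F1 for the dim Kcnmb2 probe (mean difference -0.62) and MD F2 below CD F2 for Kcnmb1 (-1.29), whereas the other pairs of groups overlap.

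Of 31 genes around the channel in 4 lists, 30 had a matched probe and 0 passed an FDR under 0.1 in limma in F1 or F2, with 2 at an unadjusted p under 0.05 in each generation. Over all probes 0.033% were called in F1 and 0% in F2, 14.4% and 5.6% had an unadjusted p under 0.05, and 48.5% and 45.7% had a log2 fold change below 0. One probe per gene was used, the brightest of each generation, which for Prkcb was A_65_P20249 in F1 and A_55_P1976278 in F2 and for each other gene the same, and no fold change is given for a gene that all arrays of a group left near background. Among accessory and binding proteins of the channel, 5 of the 6 genes measured in both groups were lower in F1 and 0 in F2, with medians of -0.10 and 0.09. Fmr1, whose product FMRP binds beta4, had -0.17 in F1 (standard error 0.0869, FDR 0.382, limma). Lrrc38, a gamma subunit that shifts the voltage range of the channel, had 0.10 in F2, and Crbn, the cereblon gene, whose product binds the alpha subunit, had 0.09. Lrrc52 was well above background on 1 of 12 F1 arrays.

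Among other potassium channels gated by calcium or sodium, Kcnn2, the SK2 channel of pyramidal neurons, had a log2 fold change of 0.15 in F1 (standard error 0.0512, unadjusted p 0.0118, FDR 0.255, limma). Kcnu1, the pH-sensitive relative of Kcnma1 from sperm, had 0.22 in F1 (FDR 0.520, limma). The mean log2 signal of its probe was 10.10 in CD F1 and 10.32 in MD F1, well above background on every F1 array. Whether this probe reads Kcnu1 alone was not analysed here. Kcnn4, the intermediate-conductance channel, was well above background on 10 of the 12 F2 arrays and had -0.46 there (standard error 0.138, unadjusted p 0.00627, FDR 0.890, limma). Kcnn1 was not well above background on any F2 array. The list's medians were 0.05 in F1 over 7 genes and 0.04 in F2 over 6.

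Calcium sources of BK channels are the voltage-gated calcium channels and the release channels of the endoplasmic reticulum. Of these 9 genes 8 had a matched probe, and Ryr3 did not. Their medians were -0.05 in F1 and 0.05 in F2, and 0 had an unadjusted p under 0.05 in limma in either generation. Cacna1e, the R-type channel, had a log2 fold change of -0.35 in F1 (standard error 0.209, FDR 0.454, limma). Cacna1b, the N-type channel, had -0.70 (standard error 0.460, FDR 0.492, limma). In F2 Ryr2, the ryanodine receptor of brain and heart, had 0.20 and Ryr1 0.19.

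Among 8 kinase and phosphatase genes, 6 were lower in F1 and 5 in F2, with medians of -0.11 and -0.08. Prkaca, the catalytic subunit of protein kinase A, had a log2 fold change of -0.35 in F1 (standard error 0.101, unadjusted p 0.00463, FDR 0.214, limma). Prkcb, a protein kinase C, had -0.21 in F1 (FDR 0.364, limma). In F2 Camk2a, a calcium/calmodulin-dependent kinase of excitatory neurons, had 0.27 (standard error 0.101, unadjusted p 0.0196, FDR 0.890, limma), and Prkg1, the cGMP-dependent kinase, had -0.31 (FDR 0.912, limma).

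**Figure D5:**
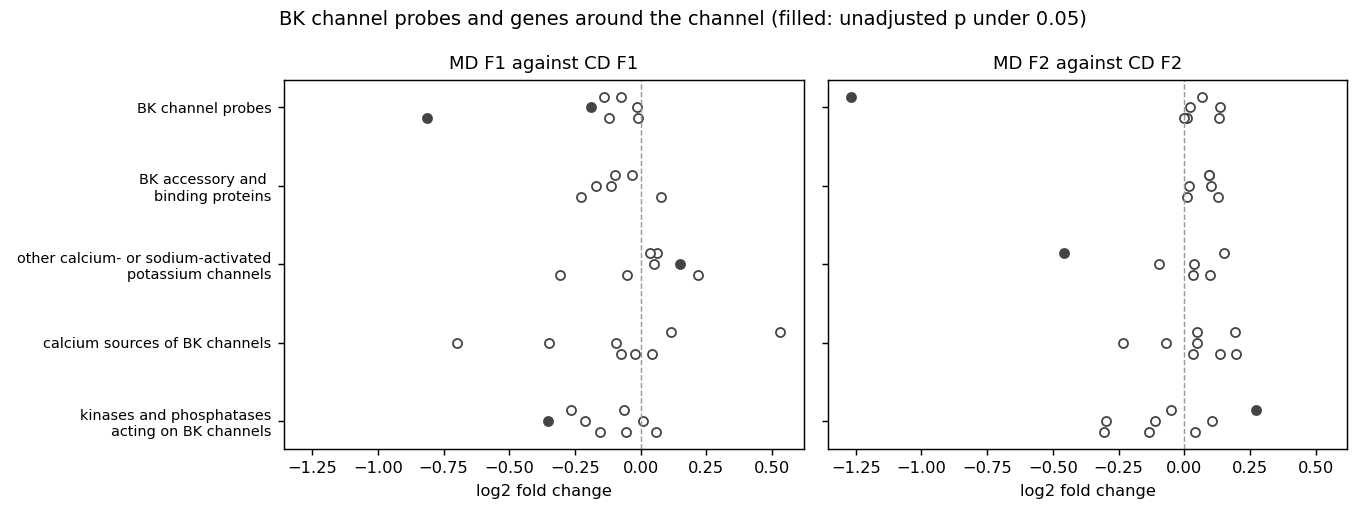
Log2 fold change (horizontal axis) in F1 (left) and F2 (right) of the 7 BK channel probes and of the genes of 4 lists around the channel; each point is 1 probe, offset vertically for legibility, and filled points have an unadjusted p under 0.05 in limma. The points farthest below 0 are Kcnmb2 A_55_P2007761 at -0.81 in F1 and Kcnmb1 at -1.27 in F2.

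The genes most like a BK probe were taken from 13941 genes well above background on all 24 arrays, by Spearman's rho of the group-centred log2 signal. Within a generation these arrays share slides and a scan day. For the dim Kcnmb2 probe they were H4c8 (rho 0.788), Magi3 (0.784) and Zfp958 (0.762). For the bright Kcnmb2 probe they were Lrp12 (0.837), Fem1b (0.797) and Trim2 (0.796), none of them shared with the dim probe. For Kcnma1 A_55_P2071656 they were Stam (0.834), Rb1 (0.828) and Map2k4 (0.807), and for Kcnmb4 A_55_P2090330 Tvp23a (0.885), Pes1 (0.871) and Tmem263 (0.856). Over the 21 arrays left without MD F1 replicate 6 and both F2 arrays that stood apart, the 12 values ran from 0.684 to 0.873.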

How the data were processed

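RNA of 24 pools was hybridised with Cy3 to Agilent 4x44K arrays. The authors deposited, per array, the intensity of each spot from Agilent Feature Extraction (background-subtracted, linear, not scaled between arrays) with its flags, used here as scores of 0 or 1, and a table of the same arrays as quantile-normalized intensities, used here as an alternative. The file headers name version 10.7.3.1 and mm9 and the methods another version. Irregular spots (1939 in F1, 2097 in F2) were left out, log2 intensities were quantile-normalized within F1 or F2, or over 24 arrays for the difference of the generations, and spots of a probe averaged. Group means were fitted over all 39429 probes (39423 in F2 and over both) with limma 3.58.1 in R 4.3.3, with Benjamini-Hochberg adjustment and a threshold of 0.1; a probe needed values on 2 arrays per group. Probes were matched to symbols by identifier (26055 probes). Replicates are described as separate pools, and their number limits the precision. Whether F2 arrays coded lh and rh share mice is not given in the sources used here. The script was tested on simulated data. Named were all BK probes, the 2 genes per list with the smallest p in F1 and in F2, the 3 genes most like each of 4 BK probes, and sex-linked genes. Members, lists and tests were chosen with earlier results of these data known. Alternatives covered scaling, background, the deposited table, filters, slide, replicate number, sex-linked measure, choroid plexus level, label code, variance prior, weights, threshold and single arrays.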

Additional observations from a re-analysis of the deposited data

Results flagged for a closer look

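Of 28 sets of 6 arrays (7 probes in 4 groups), 3 held an array far from the other 5 by Dixon's test, where chance gives about 1 in 20, or 1.4 sets. Kcnmb1 A_66_P131851 was 5.72 (log2 signal) in CD F2 replicate 6, with 4.50 to 4.82 on the other CD F2 arrays. It was 1.25 in MD F2 replicate 3, with 3.97 to 4.20 on the others. Kcnmb2 A_55_P2007761 was 3.96 in MD F1 replicate 6, with 4.48 to 4.61 on the others. The 3 arrays are those that stood apart in median intensity (MD F1 replicate 6, 167) or in spots well above background (28000 and 27383).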

How the results depend on the processing

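The count of BK probes called in F1 (1) was 0 with 75th percentile scaling, normexp, slide as a block, the replicate block, the sex-linked measure, the trended and robust prior, FDR 0.05 and the choroid plexus level, 2 without scaling, and 0 to 1 without single arrays. The numbers of the replicates did not pair the arrays (correlations -0.0538 to 0.204 in F1, -0.174 to 0.193 in F2; 0 and 2 of 6 best with their own number); with the replicate block Kcnmb2 A_55_P2007761 kept -0.81 in F1 (FDR 0.250, limma) and 0 probes were called overall against 13. The difference of the generations had 0 BK calls and 1 with array weights or without CD F2 replicate 6 and MD F2 replicate 3, and 0 to 1 without single arrays.

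Over all probes, limma called 13 in F1, 4 with 75th percentile scaling, 7952 without scaling, 5 with normexp, 3 with the other prior, 540 with array weights, 73 in a fit of 24 arrays, 2 with the choroid plexus level, 0 with the slide, the sex-linked measure or FDR 0.05, and 0 to 152 without single arrays. In F2 it called 0, or 18 in the fit of 24 arrays; for the difference of the generations 5, or 0 without scaling and with the replicate block, 9 with normexp, 11 without dim probes, 2 with the sex-linked measure, 543 with array weights and 47 without the 2 F2 arrays.

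Signs turned for some probes, and of these Kcnmb1 in F1 moved over the widest range. Kcnma1 A_51_P187352 had 0.0091 with normexp and 0.016 with array weights in F1; in F2 -0.033 without scaling, -0.067 with the sex-linked measure, -0.036 with array weights and -0.020 with the choroid plexus level; and between generations 0.047 with the sex-linked measure and 0.054 with array weights. Kcnmb1 had 0.11 in F1 with the sex-linked measure. Kcnmb2 A_55_P2112524 had 0.020 in F1 with the choroid plexus level. Kcnmb2 A_55_P2007761 had -0.0063 in F2 without scaling and -0.012 with normexp. Without single arrays, Kcnma1 A_51_P187352 ran from -0.064 to 0.017 in F1, -0.084 to 0.066 in F2 and -0.079 to 0.078 between generations, Kcnma1 A_55_P2071656 from -0.016 to 0.066 in F2, Kcnmb1 from -0.41 to 0.26 in F1, Kcnmb2 A_55_P2112524 from -0.15 to 0.088 in F1 and Kcnmb4 A_55_P2161353 from -0.093 to 0.075 in F2. The cause was not tested. Normexp on mean spot signals was not run, and median signals were used in its place; this and the choroid plexus level were chosen after seeing the data. Levels near background limit Kcnmb1 and the dim Kcnmb2 probe.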
